A study of Mus musculus with 6 samples.

Results

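The genes described here are the interferon-stimulated and antiviral sensor genes of BV2 cells, an immortalised mouse microglial line. They were chosen as 52 named targets of type I and type II interferon and nucleic acid sensors, a choice relevant to cells given an adenoviral hairpin. Of the 52 genes, 43 had a row among the 12327 genes of the deposited table, and all 43 passed the filter on low values. The 9 without a row were Zbp1, Ifit1, Ifit3b, Oas1b, Mx1, Mx2, Gbp2, Gbp5 and Ifi44. The table holds only genes whose mean reached 0.501 FPKM (a level scaled to transcript length and library size) or more in at least 1 group, so the level of those 9 was not analysed here.

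The study set 3 libraries of cells given an adenoviral short hairpin against GCH1 (Ad-shGCH1, GCH1-KD) for 48 hours against 3 libraries of negative control cells (Ad-NC) from the same BV2 subline, all grown in high-glucose medium with fetal bovine serum. GCH1 is GTP cyclohydrolase I, the first enzyme of tetrahydrobiopterin synthesis. The controls are named as an adenoviral control in one label and as wild type in another, so a response to the virus and a response to the loss of Gch1 cannot be told apart from the labels. Total RNA was depleted of ribosomal RNA and sequenced. Nothing in the labels shows that replicate libraries are separate cultures, so each p-value reflects library-to-library spread alone, which may be technical. In bulk RNA, fewer cells with a transcript and less transcript per cell cannot be told apart either.

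Infected cells detect viral RNA through RIG-I-like receptors and the mitochondrial adaptor MAVS, and cytosolic DNA, including that of adenoviruses, through cGAS and STING. Both routes activate the kinase TBK1 and the factors IRF3 and IRF7, which switch on interferon genes. Secreted interferon then acts through its receptors on complexes that hold STAT2 and IRF9 and bind the interferon-stimulated response element (ISRE), or on factors that bind the gamma-activated site (GAS). Microglia are innate immune cells of the brain in which this programme is well known.

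The libraries carried their labels. Gch1 was at 3.20, 2.93 and 3.43 FPKM in the knockdown libraries and at 6.89, 7.22 and 7.23 FPKM in the controls. Its knockdown mean was 44.8% of control, with a log2 fold change of -0.96 (SE 0.06) and a limma Benjamini-Hochberg (BH) adjusted p of 0.00542. Library sums were 224291 to 230292 FPKM, and the depth estimated from the steps of the values was 6.32 to 7.61 Gb (gigabases) in the knockdown libraries and 5.25 to 5.58 Gb in the controls. Depth moved with the groups, and its part in the results below was not tested. Of 12 microglial and macrophage markers 11 had a row, and their summed level was 1088 to 1148 FPKM in the knockdown libraries and 1136 to 1154 FPKM in the controls. Cd68 had the highest level of the 11, at 448, 452 and 471 FPKM in the knockdown libraries and 483, 478 and 498 FPKM in the controls. Of the 11, 4 were above control and 7 below it. The groups did not overlap in 2 of them, or 18.2%, against 18.4% of all genes tested. Tmem119, a marker of resting microglia, was low, at 0.528 to 0.689 FPKM in the knockdown libraries and 0.489 to 0.652 FPKM in the controls, and P2ry12, another such marker, had no row. Of 26 markers of other brain, vessel, connective tissue and lymphoid cells, 7 had a row, and none of either kind passed the test.

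No interferon-stimulated or sensor gene passed the test between knockdown and control cells. In limma's moderated test on log2(FPKM + 1), BH adjusted over 12222 genes, 0 of the 43 members were called higher and 0 lower at an adjusted p of 0.05, where 0.0818% of all genes tested were called. The members' adjusted p ran from 0.262 to 0.985. At an unadjusted p under 0.05 stood 7 members, or 16.3%, against 11.3% of all genes tested, with 3 above and 4 below control. The FPKM of the 2 groups did not overlap in 9 members, or 20.9%, against 18.4% of all genes, so neither share stood far from its background. With 3 libraries against 3, an exact two-sided permutation test of 1 gene cannot give a p below 0.1, the value that each of these 9 has.

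The members were spread evenly around their control level. Knockdown means were above control in 20 members and below it in 23, while 53.0% of all genes tested were above. The median log2 fold change was -0.01, against 0.01 for all genes, and the members ranged from -0.35 for Igtp to 0.26 for Oas1g. In 30 of the 43 the knockdown mean lay within 90 to 110% of the control mean, in 5 it was under 90% and in 8 over 110%. The 95% limma interval lay inside a 1.5-fold change in either direction in 40 of 43 members, or 93.0%, against 95.2% of all genes. The exceptions were Oasl1, Ifi47 and Tor3a, each with 1 or 2 libraries far from the others. On the log2(FPKM + 1) scale changes are understated, most in weakly expressed genes, and 6 of the members averaged under 1 FPKM. Genes of a few FPKM were affected too. With 0.1 added in place of 1, the log2 fold change was -0.44 for Igtp and -1.14 for Gch1. The members inside a 1.5-fold change then numbered 38, and 39 with 0.5 added.

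**Figure D1:**
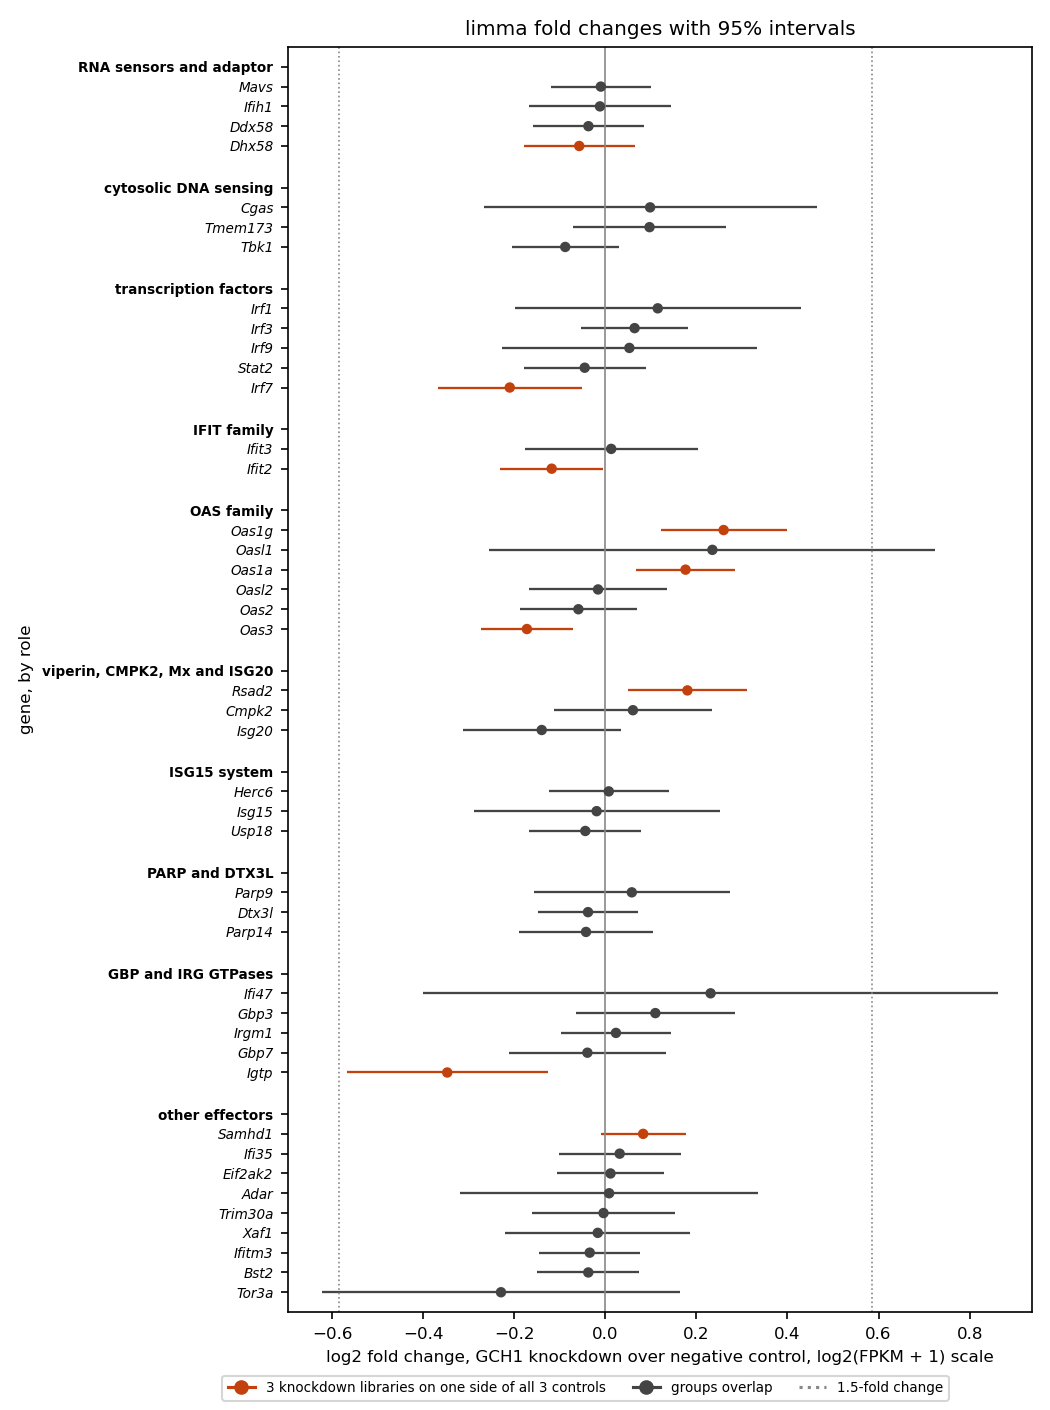
Log2 fold change of GCH1 knockdown minus control on log2(FPKM + 1) for the 43 interferon-stimulated and sensor genes with a row, with 95% limma intervals (3 libraries a group), ordered by role. Orange marks members whose groups do not overlap, dotted lines mark a 1.5-fold change, and the values run from -0.35 for Igtp to 0.26 for Oas1g with no member past the adjusted threshold.

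The programme was present at very unequal levels. Bst2, or tetherin, which holds budding virions at the cell surface, had the highest level, with 71.3, 78.9 and 76.3 FPKM in the knockdown libraries and 80.1, 75.5 and 76.7 FPKM in the controls. Ifitm3, which blocks the entry of enveloped viruses, had 51.9, 52.7 and 54.4 FPKM in the knockdown libraries and 51.2, 57.0 and 54.8 FPKM in the controls. Both sets of libraries overlapped, with knockdown means at 97.5% of control for each gene. Mavs, Tbk1 and Samhd1 came next, and of these Mavs and Tbk1 overlapped between groups. Between 5 and 20 FPKM lay 20 members, 15 lay between 1 and 5 FPKM, and Ifih1, Ifit3, Cmpk2, Gbp3, Gbp7 and Xaf1 averaged under 1 FPKM. The median member level was 5.14 FPKM, against 6.36 FPKM over all rows. The summed level of the 43 members was 389, 395 and 391 FPKM in the knockdown libraries and 384, 400.2 and 393 FPKM in the controls, so the groups overlapped.

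**Figure D2:**
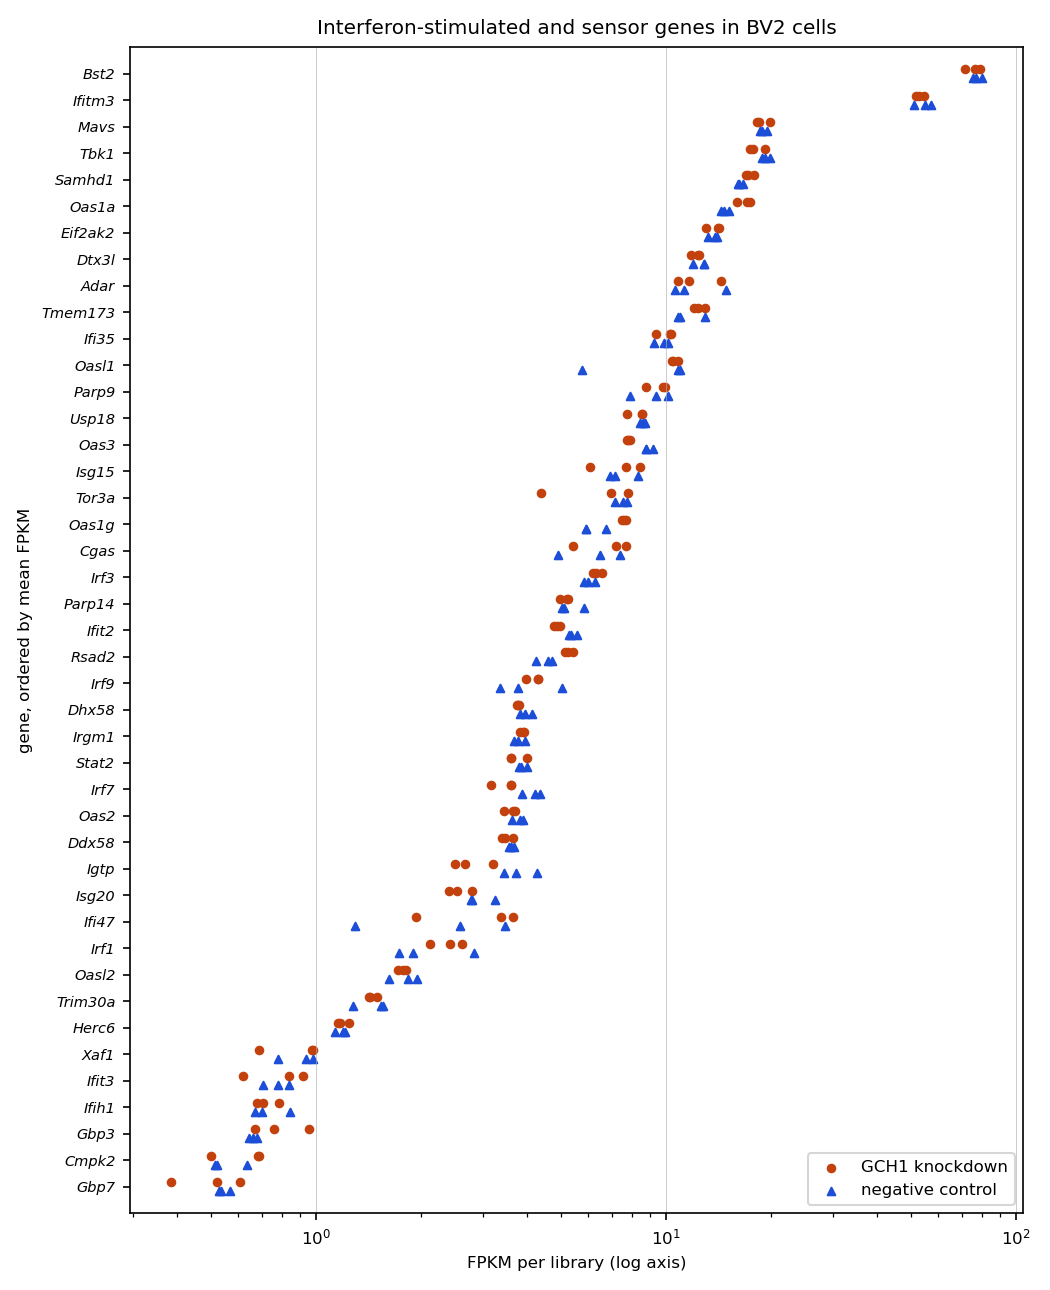
FPKM (log axis) of the 43 members in each of the 3 knockdown and 3 control libraries, ordered by level. Bst2 and Ifitm3 stand at the top and Gbp7 and Cmpk2 near the lower limit of the table, and the libraries of both groups lie on top of each other in most members.

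The ISRE was sought in the RefSeq promoter windows of build GRCm38.p6, which run from 250 bases before to 50 after each gene's start. The core was written as GAAA, any 2 bases, GAAA, on either strand, and overlapping cores were counted as 1 stretch. A gene counted when any of its windows held the core. This was so in 3.99% of 27025 genes with a window and in 21 of the 41 members with a window, or 51.2%. Among the 36 members with both a window and a row the core was present in 17, or 47.2%, against 3.73% of 8931 such genes. The GAS core, TTC, any 3 bases, GAA, was in 9.55% of all genes with a window and in 13 of the 41 members. The stretches below, each with 10 bases on either side and the core in capitals, belong to the members whose groups did not overlap and that carry a core, with Isg15 beside them as the member with 3 overlapping cores.
Oas1a, chr5:120907520-120907555, minus strand: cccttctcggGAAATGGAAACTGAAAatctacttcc
Oas1g, chr5:120887606-120887641, minus strand: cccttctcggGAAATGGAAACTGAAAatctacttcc
Oas3, chr5:120777715-120777744, minus strand: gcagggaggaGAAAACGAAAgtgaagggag
Rsad2, chr12:26456553-26456582, minus strand: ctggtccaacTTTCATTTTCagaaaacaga
Igtp, chr11:58199512-58199541, plus strand: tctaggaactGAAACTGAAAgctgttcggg
Isg15, chr4:156200865-156200906, minus strand: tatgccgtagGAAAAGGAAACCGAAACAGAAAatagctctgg
Oas1a and Oas1g share the stretch base for base, while the core of Rsad2 reads on the opposite strand of its gene.

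Members with and without an ISRE core had knockdown means on both sides of control. Of the members with a row, 17 had a core, of which 7 were above control and 10 below it, and their log2 fold changes had a median of -0.01 and a range of -0.35 to 0.26. The 19 with a window and no core had 11 above and 8 below, with a median of 0.01 and a range of -0.21 to 0.24. The groups did not overlap in 5 members with a core, or 29.4%, and in 3 without, or 15.8%, against 18.4% of all genes tested, and the difference between these shares was not tested. These are descriptions of letters in a window, and no binding was measured.

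The oligoadenylate synthetases make a short nucleotide signal from ATP in the presence of viral RNA, which activates RNase L. The list of this gene family has 7 genes, with the synthetase-like Oasl1 and Oasl2 among them, and the activity of their proteins was not measured. Of the 7 listed, 6 had a row, 3 of them above and 3 below control. Oas1g, which had the smallest p of the 43, was at 7.68, 7.48 and 7.60 FPKM in the knockdown libraries and at 5.90, 5.92 and 6.73 FPKM in the controls. Every knockdown library was above every control library. The mean was 7.59 ± 0.103 FPKM in the knockdown libraries and 6.18 ± 0.470 FPKM in the controls (SD, n = 3 each), a log2 fold change of 0.26 (95% interval 0.12 to 0.40) with a limma BH adjusted p of 0.262. Oas1a was at 17.0, 15.95 and 17.3 FPKM in the knockdown libraries and at 14.7, 14.4 and 15.1 FPKM in the controls. Its groups did not overlap either, and the log2 fold change was 0.18 (95% interval 0.07 to 0.28) with a limma BH adjusted p of 0.292.

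Oas1a and Oas1g are copies that share much of their sequence, so reads of the shared parts can be split between them. Of the 50-base words of the Oas1a transcripts, 57.6% also occur in Oas1g, and of those of Oas1g 45.25% occur in Oas1a. Their summed level was 24.7, 23.4 and 24.9 FPKM in the knockdown libraries and 20.6, 20.3 and 21.8 FPKM in the controls. The knockdown mean of the sum was 117% of control. Its groups could not overlap, because each gene alone had every knockdown library above every control. The separation of the sum therefore adds no support, and how reads were split between the copies was not tested.

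Oas3 makes the same signal from a longer protein. It lies in the same cluster as Oas1a and Oas1g, next to Oas2, and its difference had the opposite sign. It was at 7.73, 7.77 and 7.87 FPKM in the knockdown libraries and at 8.77, 9.17 and 8.78 FPKM in the controls, all knockdown libraries being below all controls. The mean was 7.79 ± 0.0747 FPKM in the knockdown libraries and 8.90 ± 0.232 FPKM in the controls (SD, n = 3 each), a log2 fold change of -0.17 (95% interval -0.27 to -0.07) with a limma BH adjusted p of 0.292. Oas2, Oas3, Oas1g and Oas1a lie on the minus strand of chr5 within 177 kb (GENCODE M21, GRCm38, 120730333 to 120907521). The ratio of Oas1g to Oas3, a pair picked after their values were seen, was 0.994, 0.963 and 0.966 in the knockdown libraries and 0.673, 0.646 and 0.766 in the controls. The ratio was not tested.

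The 250 bases before the start of each gene (RefSeq, GRCm38.p6, minus strand) show how alike the promoters of the copies are and how unlike that of Oas3, with the ISRE cores in capitals.
Oas1a, chr5:120907526-120907775: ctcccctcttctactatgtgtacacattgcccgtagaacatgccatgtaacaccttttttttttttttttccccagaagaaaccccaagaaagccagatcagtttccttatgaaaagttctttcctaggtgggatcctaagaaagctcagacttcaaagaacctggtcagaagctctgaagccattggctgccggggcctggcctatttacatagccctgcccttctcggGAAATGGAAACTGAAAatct
Oas1g, chr5:120887614-120887863: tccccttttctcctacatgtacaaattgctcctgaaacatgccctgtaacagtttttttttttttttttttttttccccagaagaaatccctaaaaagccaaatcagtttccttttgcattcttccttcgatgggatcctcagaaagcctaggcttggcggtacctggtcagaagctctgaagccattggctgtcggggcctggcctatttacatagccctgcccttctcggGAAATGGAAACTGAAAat
Oas3, chr5:120777660-120777909: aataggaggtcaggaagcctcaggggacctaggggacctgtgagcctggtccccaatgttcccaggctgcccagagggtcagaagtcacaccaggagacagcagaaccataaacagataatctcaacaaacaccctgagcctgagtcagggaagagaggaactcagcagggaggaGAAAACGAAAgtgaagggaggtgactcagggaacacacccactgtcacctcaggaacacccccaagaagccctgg
Oas1a and Oas1g were identical in 212 of 256 aligned columns, or 82.8%, while Oas1a and Oas3 were identical in 43.9% and Oas1g and Oas3 in 41.5%. The cores of the copies lie next to the gene start, at positions -20 to -5 in Oas1a and -18 to -3 in Oas1g counted from it, and that of Oas3 lies at positions -75 to -66.

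The remaining genes of this family overlapped between groups. Oas2 was at 3.65, 3.45 and 3.69 FPKM in the knockdown libraries and at 3.63, 3.83 and 3.91 FPKM in the controls, and Oasl2 averaged 1.77 ± 0.0433 FPKM in the knockdown libraries and 1.80 ± 0.165 FPKM in the controls (SD, n = 3 each). Oasl1, whose mouse protein restrains the translation of Irf7, was at 10.8, 10.4 and 10.5 FPKM in the knockdown libraries and at 5.74, 10.8 and 10.9 FPKM in the controls. Its log2 fold change of 0.24 (SE 0.21) rests on control 1 alone, and without that library it was -0.04.

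**Figure D3:**
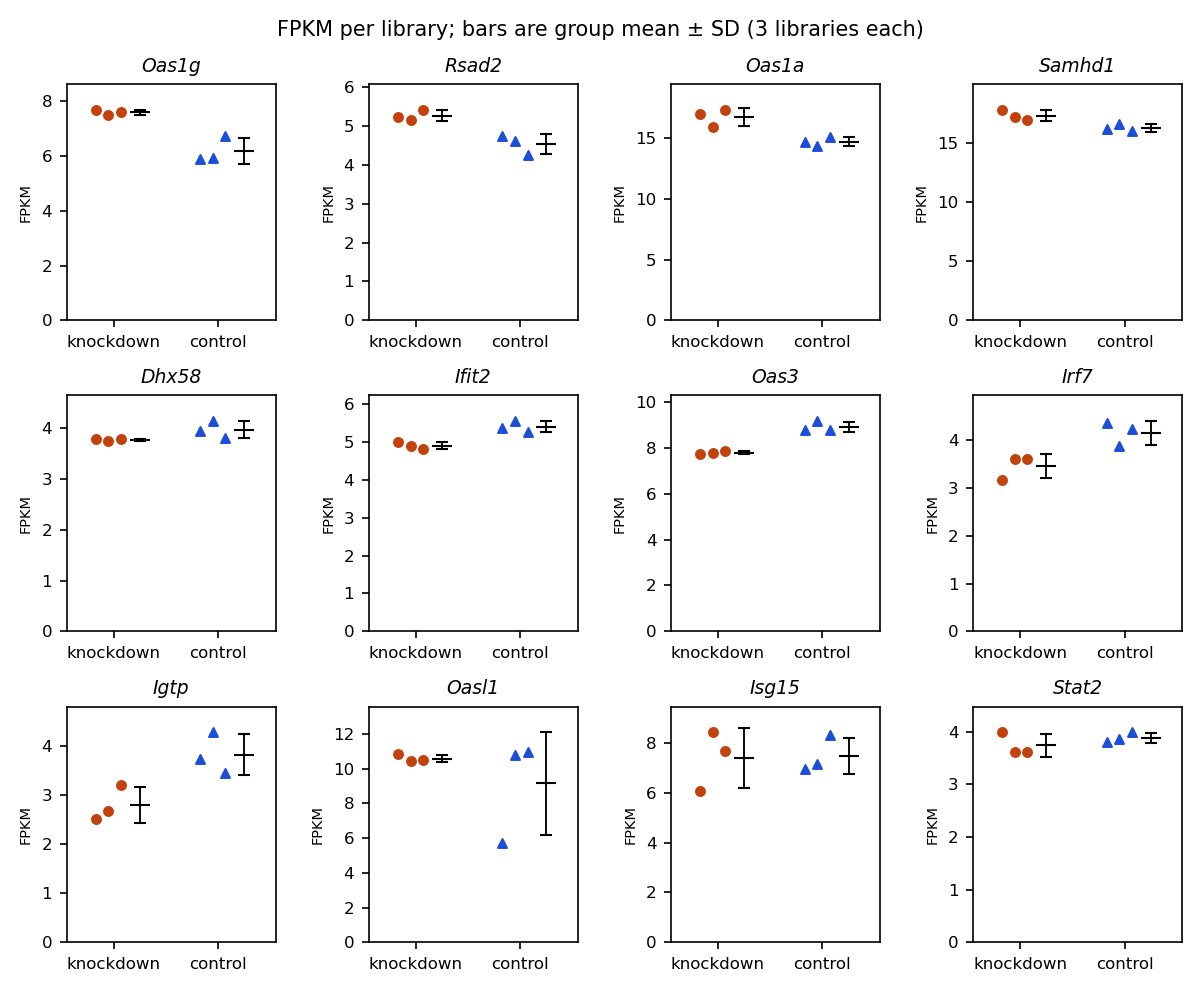
FPKM per library (points), with group means and SD (3 libraries a group) for the 9 members whose groups do not overlap and for Oasl1, Isg15 and Stat2. Oas1g, Oas1a, Rsad2 and Samhd1 lie above control in all knockdown libraries, and Igtp, Irf7, Oas3, Ifit2 and Dhx58 below control in all, while control 1 alone is low in Oasl1.

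Among the RNA sensors and their adaptor, all 4 measured genes had knockdown means slightly below control. This shared direction was not stable. Over the alternatives of the closing section the log2 fold change ran from -0.05 to 0.03 for Ifih1 and from -0.05 to 0.01 for Mavs. Ifih1, the MDA5 sensor of long RNA duplexes, was at 0.784, 0.678 and 0.706 FPKM in the knockdown libraries and at 0.670, 0.841 and 0.703 FPKM in the controls. Ddx58, or RIG-I, was at 3.65, 3.40 and 3.47 FPKM in the knockdown libraries and at 3.61, 3.68 and 3.57 FPKM in the controls, and both sensors overlapped between groups. Dhx58, or LGP2, which tunes the other sensors, was at 3.79, 3.75 and 3.79 FPKM in the knockdown libraries and at 3.95, 4.15 and 3.82 FPKM in the controls. Its groups did not overlap (the nearest libraries were knockdown 1 and control 3), and its log2 fold change was -0.06 with a limma BH adjusted p of 0.697. Mavs was at 99.3% of control. The group's median log2 fold change was -0.02.

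The DNA sensing genes had means close to control. Cgas, the enzyme that turns cytosolic DNA into a cyclic dinucleotide, was at 7.66, 5.43 and 7.20 FPKM in the knockdown libraries and at 4.92, 7.41 and 6.47 FPKM in the controls, with wide overlap. Tmem173, which encodes the STING receptor of that dinucleotide, averaged 12.4 ± 0.447 FPKM in the knockdown libraries and 11.6 ± 1.18 FPKM in the controls (SD, n = 3 each). Tbk1, the shared kinase, was at 19.2, 17.7 and 17.3 FPKM in the knockdown libraries and at 19.1, 19.9 and 18.8 FPKM in the controls. Its groups overlapped through knockdown 1, and the log2 fold change was -0.09 with a limma BH adjusted p of 0.532.

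Of the 5 transcription factors, Irf7, the factor that amplifies interferon production, had groups that did not overlap (chr7:141262706-141266481, minus strand; gene positions are from GENCODE M21, GRCm38). It was at 3.16, 3.61 and 3.61 FPKM in the knockdown libraries and at 4.36, 3.88 and 4.23 FPKM in the controls, which puts all knockdown libraries below all controls. Its knockdown mean was 83.3% of control, with a log2 fold change of -0.21 (95% interval -0.37 to -0.05) and a limma BH adjusted p of 0.356. The gene overlaps Phrf1 on the other strand, but only from 141262706 to 141262750, where both genes end. The strand setting of the quantification is not given in the sources used here, so reads of the pair may not be separated in that stretch. Phrf1 was at 93.1% of control, and its groups overlapped. Other members overlap a measured gene on the other strand too, among them Irf3 with Bcl2l12, Usp18 with Gm44148 and Adar with Chrnb2. Irf3, which starts interferon transcription, averaged 6.35 ± 0.188 FPKM in the knockdown libraries and 6.03 ± 0.224 FPKM in the controls (SD, n = 3 each). Irf9 and Stat2, partners in the complex that binds the ISRE, were at 103% and 96.2% of control. Irf9 varied widely among the controls, at 3.35, 5.06 and 3.79 FPKM. Its log2 fold change was -0.05 without control 1 and 0.19 without control 2. Irf1, a factor of the interferon gamma response, was at 2.11, 2.62 and 2.42 FPKM in the knockdown libraries and at 1.72, 1.90 and 2.83 FPKM in the controls, where control 3 was the highest of all.

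Among classical interferon targets, Rsad2 and Ifit2 stood apart from their controls in opposite directions. Rsad2, or viperin, which makes an antiviral nucleotide (on the minus strand, chr12:26442746-26456452), was at 5.23, 5.14 and 5.41 FPKM in the knockdown libraries and at 4.74, 4.61 and 4.24 FPKM in the controls. Its log2 fold change was 0.18 (95% interval 0.05 to 0.31) with a limma BH adjusted p of 0.344. Ifit2, of a family that binds foreign RNA (chr19:34550694-34576419, plus strand), was at 4.98, 4.89 and 4.80 FPKM in the knockdown libraries and at 5.35, 5.55 and 5.27 FPKM in the controls. Its log2 fold change was -0.12 with a limma BH adjusted p of 0.424. In both genes the libraries of the groups were fully separated, and both intervals lay inside a 1.5-fold change.

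The other classical targets overlapped. Cmpk2, a mitochondrial nucleotide kinase and neighbour of Rsad2 on chr12, was at 0.503, 0.690 and 0.682 FPKM in the knockdown libraries and at 0.633, 0.515 and 0.521 FPKM in the controls. Ifit3 was at 0.839, 0.918 and 0.620 FPKM in the knockdown libraries and at 0.836, 0.778 and 0.704 FPKM in the controls, and 51.2% of its 50-base words also occur in Ifit3b, which makes its level uncertain. Isg20, an RNA exonuclease, was at 2.40, 2.53 and 2.796 FPKM in the knockdown libraries and 2.777, 2.80 and 3.25 FPKM in the controls.

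Isg15, the ubiquitin-like modifier with 3 overlapping ISRE cores, was at 6.06, 8.44 and 7.68 FPKM in the knockdown libraries and at 6.94, 7.16 and 8.29 FPKM in the controls. Its mean was 99.1% of control, and the lowest and the highest library were both knockdowns. Usp18, which removes Isg15 and damps receptor signalling, was at 96.7% of control, and Herc6, the mouse ligase for Isg15, at 101%. Parp9 and Dtx3l, which form one complex and overlap on opposite strands, were at 104% and 97.2% of control, and Parp14, an ADP-ribosyltransferase, at 96.4%.

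The interferon-inducible GTPases, which attack the vacuoles of intracellular pathogens, held the largest member difference. Igtp, or Irgm3 (chr11:58199556-58207591, plus strand), was at 2.498, 2.67 and 3.19 FPKM in the knockdown libraries and at 3.72, 4.28 and 3.45 FPKM in the controls, with no overlap. The mean was 2.79 ± 0.363 FPKM in the knockdown libraries and 3.82 ± 0.424 FPKM in the controls (SD, n = 3 each), or 73.1% of control, with a log2 fold change of -0.35 (95% interval -0.57 to -0.13) and a limma BH adjusted p of 0.307. Igtp overlaps Irgm2 on the same strand and shares 11.8% of its 50-base words with it. Irgm2 itself was at 2.45, 2.31 and 2.32 FPKM in the knockdown libraries and at 2.23, 2.44 and 2.37 FPKM in the controls, so the partner's groups overlapped. Irgm1, a regulator of the family, was at 102% of control. Gbp3 and Gbp7, guanylate-binding proteins near the lower limit of the table, averaged 0.796 ± 0.146 and 0.505 ± 0.113 FPKM in the knockdown libraries and 0.660 ± 0.0179 and 0.544 ± 0.0210 FPKM in the controls (SD, n = 3 each), and each overlapped. Ifi47 was at 3.37, 3.65 and 1.93 FPKM in the knockdown libraries and at 3.47, 2.58 and 1.30 FPKM in the controls, a spread within groups far above the difference between them.

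Among the other effectors, Samhd1, which hydrolyses the nucleotides that viruses need (on the minus strand, chr2:157097533-157135265), was at 17.8, 17.2 and 17.0 FPKM in the knockdown libraries and at 16.2, 16.6 and 16.02 FPKM in the controls. The groups did not overlap, at 106% of control, with a log2 fold change of 0.08 (95% interval -0.01 to 0.18) and a limma BH adjusted p of 0.486. Eif2ak2, the RNA-activated kinase PKR, was at 14.2, 14.1 and 12.98 FPKM in the knockdown libraries and at 13.2, 14.0 and 13.8 FPKM in the controls. Adar, which edits RNA duplexes, was at 10.9, 11.6 and 14.3 FPKM in the knockdown libraries and at 11.2, 14.8 and 10.6 FPKM in the controls, so 1 library of each group was high. Ifi35, Trim30a and Xaf1 were at 102%, 99.3% and 98.0% of control, while Tor3a, a torsin ATPase, was at 6.98, 7.77 and 4.41 FPKM in the knockdown libraries and at 7.53, 7.75 and 7.16 FPKM in the controls, where knockdown 3 alone set its mean of 85.4% of control.

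**Figure D4:**
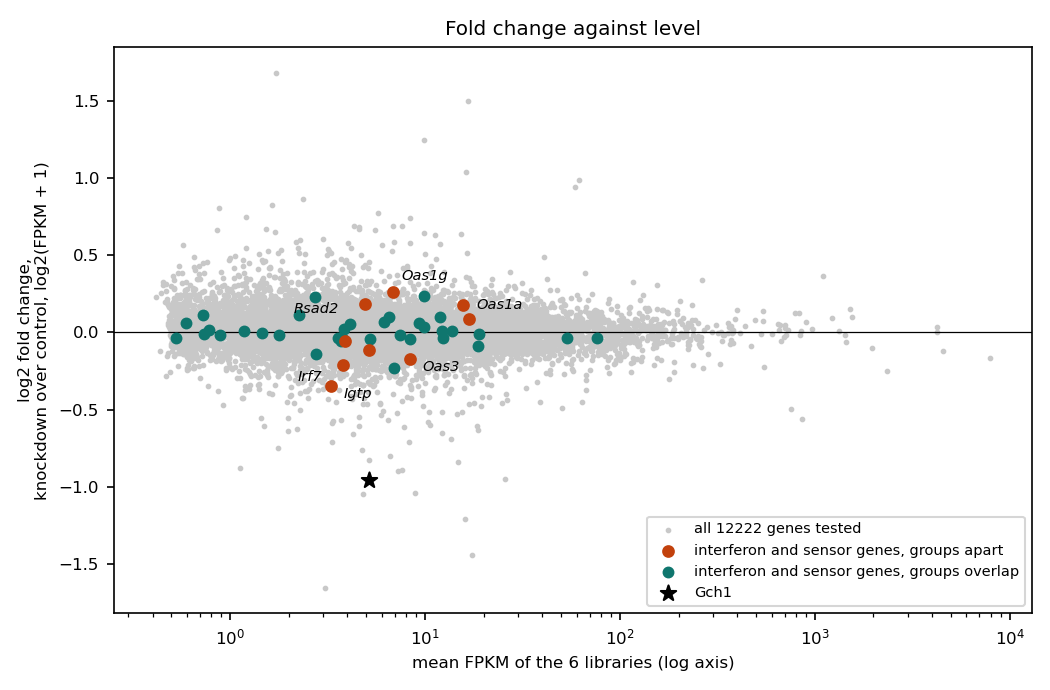
Log2 fold change of GCH1 knockdown minus control on log2(FPKM + 1) against mean FPKM (log axis) for the 43 members, over all 12222 genes tested (grey), with Gch1 as a star. The members lie within the cloud of all genes at every level, between -0.35 and 0.26.

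The 6 libraries did not order the members by group. Control 2 was the highest of the 6 for 14 members and control 1 the lowest for 11. Among the knockdown libraries, knockdown 2 was highest for 10 members and knockdown 1 and knockdown 3 lowest for 8 each. The median deviation of the members from their own mean on log2(FPKM + 1) was 0.021, 0.021 and -0.007 in the knockdown libraries and -0.019, 0.027 and 0.007 in the controls. Over all genes tested it was 0.010, -0.003 and 0.007 in the knockdown libraries and -0.011, 0.015 and -0.011 in the controls. Control 2 was thus highest and control 1 lowest over all genes too. The median residual SD of the members was 0.0667, against 0.0778 for all genes, so their spread between libraries was not wider than that of other genes. Their median transcript GC content, 49.8%, equalled that of all genes.

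**Figure D5:**
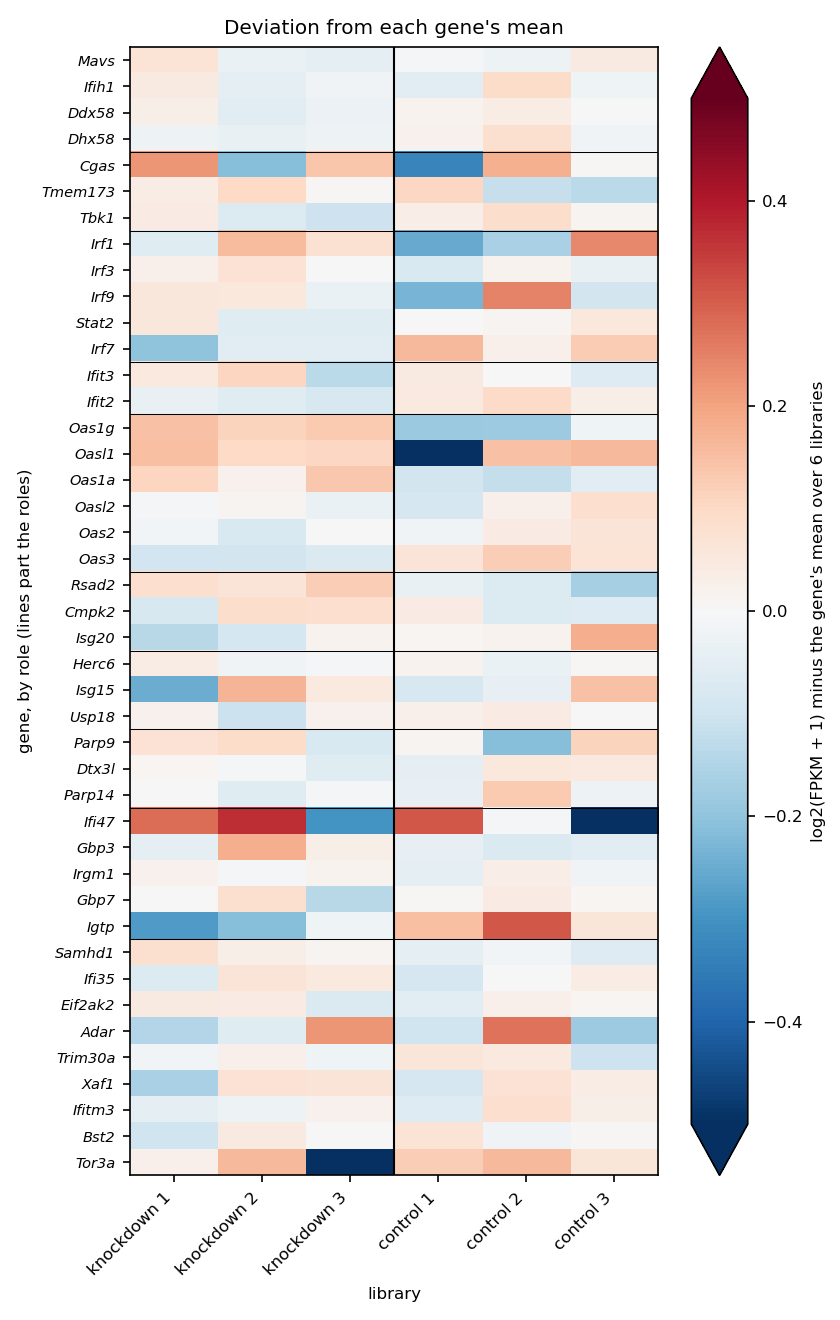
Heat map of the deviation of each of the 43 members (rows, by role) from its own mean over the 6 libraries (columns), on log2(FPKM + 1), red above and blue below the mean, with colours capped at 0.5 either way. The libraries' medians run from -0.019 in control 1 to 0.027 in control 2, and the knockdown medians lie between them.

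The rest of the pathway was read from lists that do not hold the members. Of 21 interferon ligand genes none had a row. Of 20 receptor and signalling genes 19 had a row, with 0 called, 9 above control, 10 below it and a median change of -0.00 on the log2 scale. At an unadjusted limma p under 0.05 stood 1 of the 19, against 11.3% of all genes tested. The groups did not overlap in 6 of the 19, or 31.6%, against 18.4% of all genes tested, a difference that was not tested. The receptor chains Ifnar1, Ifnar2, Ifngr1 and Ifngr2 had log2 fold changes of 0.06, -0.10, 0.10 and 0.05, and the kinases Jak1 and Tyk2 of -0.05 each, with limma BH adjusted p from 0.4598 for Ifngr1 to 0.773 for Ifnar1. Among these 6 genes, Ifngr1 and Ifngr2 were above control and Ifnar2 and Jak1 below it in groups that did not overlap, while Ifnar1 and Tyk2 overlapped.

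Of 40 other sensors and adaptors 37 had a row, with 0 called, 20 above and 17 below control and a median of 0.03. The groups did not overlap in 10 of these, or 27.0%, against 18.4% of all genes tested, a difference that was not tested. At an unadjusted limma p under 0.05 stood 4 of the 37, against 11.3% of all genes tested. Ikbke, a kinase related to Tbk1, had the smallest p of that list. It was at 5.57, 5.05 and 5.41 FPKM in the knockdown libraries and at 6.29, 6.70 and 6.62 FPKM in the controls, a full separation with a log2 fold change of -0.25 (SE 0.05) and a limma BH adjusted p of 0.261. Ddx3x, an RNA helicase, and Rnf135, a ligase that acts on RIG-I, had log2 fold changes of 0.17 and 0.24 with limma BH adjusted p of 0.287 and 0.359. Of 83 other interferon-stimulated genes 55 had a row, with 0 called, 22 above and 33 below control and a median of -0.03. The groups did not overlap in 9 of these, or 16.4%, and 5 of the 55 had an unadjusted limma p under 0.05, against the same 18.4% and 11.3% of all genes. Trim14, Helz2 and Sp110, which had the smallest p of these, had log2 fold changes of -0.21, -0.13 and -0.16, with limma BH adjusted p of 0.356, 0.387 and 0.39.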

How the data were processed

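For every gene the deposited table holds 1 value in each library, without naming a unit. Its values were taken as FPKM normalized by the authors, since they are not whole and FPKM times transcript length falls on whole steps as deposited. Of 1646 to 1764 single-transcript genes, 70.2% to 76.6% came within 0.1 of such a step in each library, where chance gives 20%. HISAT2, StringTie and edgeR appear in the submitters' processing notes with no role given, beside the human build hg38, although the identifiers are mouse genes. Libraries were grouped by the genotype label.

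Identifiers were matched without version to GENCODE M21 (12300 of 12327; Mb21d1 is Cgas there). The 12222 genes that reached 0.5 FPKM in 3 or more libraries were tested on log2(FPKM + 1) with limma 3.58.1 in R 4.3.3, moderated with a mean-variance trend and BH adjusted over all of them, after a check on simulated data. Calls needed an adjusted p under 0.05. Sequences were handled in Python 3.11.15 with numpy 2.4.6 and pandas 2.3.3. Values are given for Gch1, members whose groups do not overlap, the 8 with the smallest p, the 5 with the highest level, a fixed list of classical members, and the 3 of each other list with the smallest p beside Jak1, Tyk2 and the receptors; other members are named within their role group. One gene named by this rule is not reported here. The members, lists, tests and this rule were chosen with earlier results of these data known. Alternatives are given in the closing section. A planned comparison of protein sequences was replaced by shared 50-base words.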

Additional observations from a re-analysis of the deposited data

How the results depend on the processing

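In 16 alternatives 0 members were called, and over the 30 named members the lowest limma BH adjusted p was 0.238. Log2 fold changes of Oas1g ran from 0.23 to 0.31, of Oas1a from 0.15 to 0.21, of Rsad2 from 0.14 to 0.21, of Oas3 from -0.19 to -0.14, of Irf7 from -0.26 to -0.16 and of Igtp from -0.44 to -0.28; 24 uncalled sign changes fell in 11 other members. With each library left out in turn, the genes called over the whole table numbered 6 to 18. There were 10 with all libraries, 18 without control 2 and 6 without knockdown 2 or knockdown 3. The members whose groups did not overlap numbered 11 to 16, against 9 with all libraries, and fewer libraries overlap less. The share over all genes with a library left out is not given here, so these counts have no background. The members' median log2 fold change ran from -0.0399 without control 1 to 0.0123 without control 2. Restricting the fit to means of 5 FPKM or more leaves 22 members, of which 5 did not overlap, 11 were above control and 20 lay inside a 1.5-fold change. At an unadjusted limma p under 0.05 stood 4 of them, and 791 genes over that whole fit. For this fit, too, no share of all genes is given here. Removing the trend on GC content and length left 6 genes called. A replicate block left 0 genes called, with 1330 at an unadjusted limma p under 0.05. In that fit Gch1 had a log2 fold change of -0.956 with a limma BH adjusted p of 0.0604. The numbers were not taken as pairs because nothing in the labels says that they pair the libraries. Same-numbered libraries correlated at 0.095, 0.059 and 0.094 in their deviations, and each library correlated best with its own number. Whether they are pairs was not tested. The cause of these shifts was not tested. Depth was only estimated, and no counting interval can be given.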

Other observations

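A few interferon and microglial genes differed strongly between libraries of the same group; Itgam and Cx3cr1 were picked after their values were seen. Irf5, which had the smallest p of the receptor and signalling list and is a factor of inflammatory and interferon gene induction, was at 12.5, 10.8 and 11.7 FPKM in the knockdown libraries and at 5.80, 11.5 and 7.39 FPKM in the controls, with a log2 fold change of 0.50 and a limma BH adjusted p of 0.414. Control 1 was thus the lowest library for Irf5, as it was for Oasl1. Itgam, the CD11b chain of the complement receptor, was at 19.5, 7.10 and 23.0 FPKM in the knockdown libraries and at 19.7, 31.1 and 7.22 FPKM in the controls, so low libraries occurred in both groups. Cx3cr1, the fractalkine receptor, was at 0.430, 0.480 and 0.541 FPKM in the knockdown libraries and at 0.597, 0.2998 and 3.16 FPKM in the controls, where control 3 stood apart.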
